A study of Mus musculus with 12 samples.

Results

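The genes described here are 9 markers of Group 3 medulloblastoma and of photoreceptors: Npr3, Gabra5, Impg2, Otx2, Crx, Nrl, Prdm1, Rcvrn and Aipl1. They were taken from the 22180 genes named on the array by their symbol in the array annotation, and each had 1 probe set. They were measured in cultured murine MP cells, which model the MYC-driven form of Group 3 medulloblastoma, a malignant childhood tumour of the cerebellum. The cells of 3 tumours, MP567, MP570 and MP525, were taken from cerebella of NSG mice, which lack lymphocytes, and were dissociated and plated. They received 25 nM LBH589 (panobinostat, an inhibitor of histone deacetylases) or 0.00025% DMSO, the solvent, and were lysed 6 h or 12 h later. Each tumour gave 1 array for LBH589 at 6 h, DMSO at 6 h, LBH589 at 12 h and DMSO at 12 h, so that each of the 4 groups held 3 arrays. All groups share the MP background, the strain of the host and the culture medium, and no untransformed cerebellar tissue was analysed here. Values are log2 expression values, for which array medians lay between 7.1 and 7.21, and precision is limited by how few arrays there are.

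Human Group 3 medulloblastomas often carry transcripts of a photoreceptor programme that the cerebellum does not normally use. In the retina, the homeodomain factor OTX2 specifies photoreceptor precursors and turns on CRX, and CRX together with the rod factor NRL drives the genes of phototransduction. NPR3, GABRA5, IMPG2 and NRL belong to a panel used to assign human tumours to Group 3, while PRDM1, recoverin and AIPL1 mark photoreceptor precursors or mature rods and cones.

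Promoter windows from RefSeq (GRCm38.p6, 250 bases before to 50 after a start listed for the gene) were found for 8 of the 9 genes. By the gene coordinates at hand, whose build is not stated, the Crx window spans the outer end of its gene. The windows of Npr3, Gabra5, Impg2, Nrl, Prdm1 and Aipl1 lie inside their genes rather than at the outermost start. They were searched on both strands for TAATCC, the core bound by OTX2 and CRX, for TGCTGA, the half-site of NRL and other MAF factors, and for CACGTG, the E-box of MYC and MAX. Every match is printed in capitals, and no match overlaps another. Npr3 and Gabra5 are shown because the results below turn on them, Crx and Aipl1 because theirs are the windows with a pair of homeodomain cores. All 4 lie on the minus strand, at chr15:11907322-11907621 (Npr3), chr7:57510010-57510309 (Gabra5), chr7:15879906-15880205 (Crx) and chr11:72037460-72037759 (Aipl1).
Npr3: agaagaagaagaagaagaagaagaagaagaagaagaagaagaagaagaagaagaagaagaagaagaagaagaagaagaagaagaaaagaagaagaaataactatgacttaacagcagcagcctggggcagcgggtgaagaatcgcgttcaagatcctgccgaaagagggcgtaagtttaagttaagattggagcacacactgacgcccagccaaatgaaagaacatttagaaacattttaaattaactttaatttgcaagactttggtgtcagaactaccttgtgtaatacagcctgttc
Gabra5: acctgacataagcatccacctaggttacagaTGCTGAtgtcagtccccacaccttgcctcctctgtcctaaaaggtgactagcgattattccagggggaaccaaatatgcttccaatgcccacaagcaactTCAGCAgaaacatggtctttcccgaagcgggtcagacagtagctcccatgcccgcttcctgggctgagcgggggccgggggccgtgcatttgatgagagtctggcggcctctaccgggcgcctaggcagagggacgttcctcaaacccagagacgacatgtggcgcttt
Crx: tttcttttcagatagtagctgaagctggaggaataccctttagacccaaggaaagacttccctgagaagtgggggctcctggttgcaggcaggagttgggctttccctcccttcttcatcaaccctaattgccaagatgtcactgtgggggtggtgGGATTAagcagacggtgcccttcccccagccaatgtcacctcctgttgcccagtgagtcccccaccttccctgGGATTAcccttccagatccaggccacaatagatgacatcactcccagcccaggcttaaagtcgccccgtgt
Aipl1: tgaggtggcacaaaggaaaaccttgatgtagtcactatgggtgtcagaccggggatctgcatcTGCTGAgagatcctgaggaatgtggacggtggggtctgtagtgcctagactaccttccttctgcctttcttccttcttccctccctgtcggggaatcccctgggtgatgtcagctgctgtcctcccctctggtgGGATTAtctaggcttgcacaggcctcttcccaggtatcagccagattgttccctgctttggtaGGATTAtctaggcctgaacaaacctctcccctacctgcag
The Npr3 window held 0 matches to the 3 motifs and had a GC content of 39%. The Gabra5 window held 2 half-sites, 1 of them on the opposite strand (TCAGCA). The Crx window held 2 homeodomain cores, both read as GGATTA on the printed strand, and the Aipl1 window held 2 of them and 1 half-site. Of the 4 Otx2 windows, 1 held a homeodomain core and a half-site, 1 held a half-site, and 2 held no match. The Nrl, Prdm1 and Impg2 windows held no match. Among all 32851 mouse windows of this length, 7.06% held TAATCC, 19.5% TGCTGA and 7.15% CACGTG. A match describes these letters only, and binding was not measured.

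Of the 9 genes, 1 lay above the median of its array on all 12 arrays, 4 on some and 4 on none. Across all 22180 genes, 51.5% lay above the median on all 12 arrays and 34.3% on none. Probe sets differ in their affinity, so a percentile says how bright a probe set is within its own array and does not rank transcripts of different genes.

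Among the receptors and matrix proteins of the human subgroup panel, Npr3, the clearance receptor that removes natriuretic peptides, was bright on every array. It stood between the percentiles 79.9 and 96 of its arrays, with a median of 88.9. Gabra5, the alpha 5 subunit of the GABA-A receptor, lay above the median on 11 arrays, between percentiles 48 and 75.9. Impg2, a proteoglycan of the matrix between photoreceptors, lay below the median on all 12 arrays and above the 25th percentile on 11. Mab21l2, a regulator of eye development and the only gene of the Group 3 panel outside the 9 markers with a probe set of its own here, had a mean percentile of 84.2 and was above the median on all 12 arrays. The panel as a whole had a median of the mean percentiles of 58.5, against 56.1 for the Group 4 panel, 70.3 for the SHH panel and 52.1 for the WNT panel, each with 5 genes. The panels hold different genes, so these medians do not rank the subgroups. Tumours also differed: over the DMSO arrays at 6 h, the mean of the SHH panel spanned 7.73 to 9.72 and that of the Group 3 panel 8.18 to 8.79.

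Among the transcription factors, Otx2 was above the median on 8 arrays and Prdm1, a zinc finger repressor that stabilises photoreceptor fate, on 9. The Otx2 arrays split by tumour, with all 4 of MP567 below the median and all 8 of MP570 and MP525 above it. Crx, between percentiles 29.5 and 42, and Nrl, between 38.9 and 48.5, were below the median on every array. Among the photoreceptor proteins, Rcvrn, the calcium sensor recoverin of rods and cones, was above the median on 10 arrays. Aipl1, a chaperone of the rod and cone phosphodiesterase, was above it on 0, with percentiles of 37.7 to 48.3.

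For scale, the 8 lymphocyte genes on the array had mean percentiles of 15.5 to 48.5, with a median of 37.5, and 6 of them were above the median on no array. The T cell gene Cd3e stood at 36.3. Crx and Impg2 thus had values within the range of genes of a cell type that the host lacks, and so did Nrl and Aipl1, so their brightness alone does not separate a low transcript level from the background of the probe sets. On single arrays the lymphocyte gene Cd79a spanned 6.78 to 7.59, which holds every value of Rcvrn and Prdm1. It also holds every Gabra5 value of MP567, and those of MP570 except DMSO at 6 h (7.61). The Otx2 percentiles of MP567, 33.5 to 46.7, also lay in the lymphocyte range. In LBH589, the Otx2 values of MP570 and MP525 (7.43 to 7.58) lay within the span of Cd79a. The same limit bears on these values. Of 38 genes of phototransduction and of rod or cone structure, 5 were above the median on all 12 arrays and 28 on none, with a median of the mean percentiles of 38.2. The 5 were Gnb1, Cngb1, Prph2, Unc119 and Rgs9, of which Gnb1 and Unc119 are also made in many other tissues. Of 17 other retinal transcription factors, 8 were above the median on all 12 arrays and 4 on none, against 51.5% and 34.3% of all genes. By mean percentile, the 8 were Mef2d (95.6), Pax6 (91), Otx1 (79.9), Onecut2 (75.4), Neurod1 (74.6), Lhx2 (65.8), Onecut1 (65.8) and Rax (59.4). Neurod1 is also a factor of cerebellar granule cells, so a bright probe set of this list does not by itself mark a retinal programme. Myc, the driver of the model, stood at 72.7 and Prom1, a stem cell surface protein also found in photoreceptor discs, at 78.9.

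**Figure D1:**
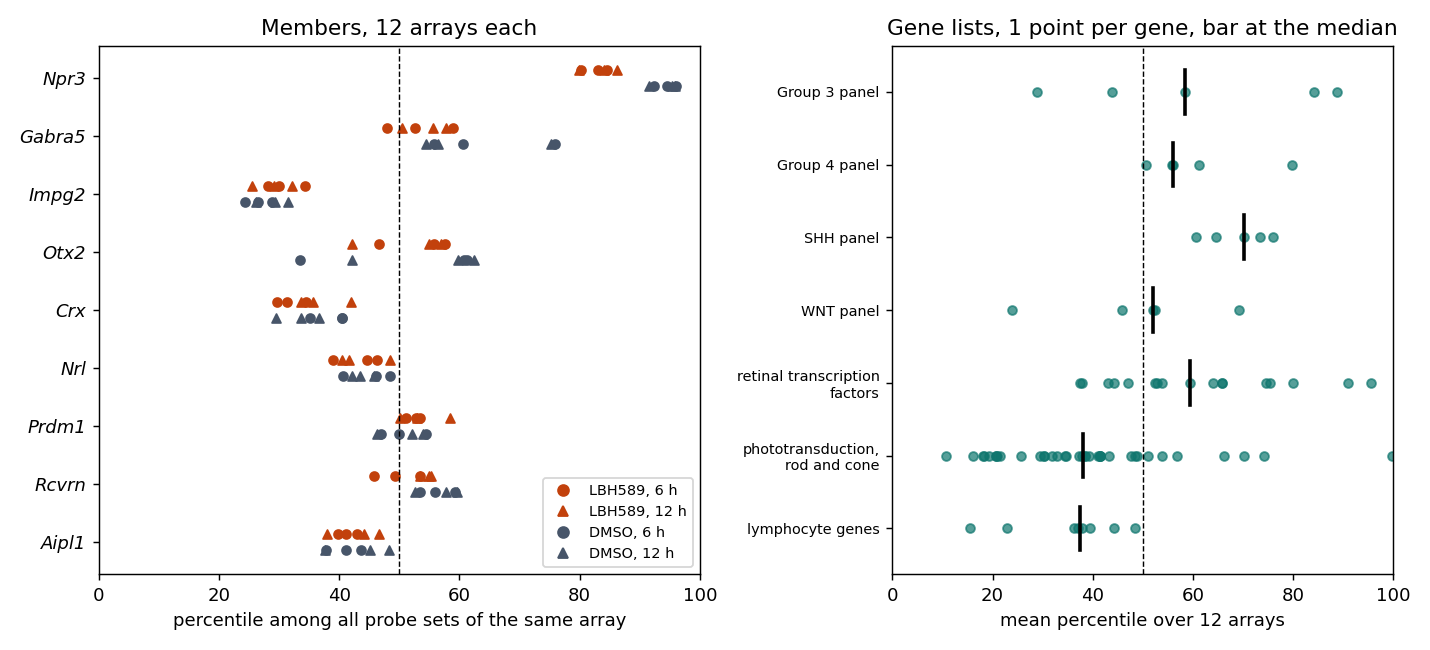
Left, percentile of each marker gene among all probe sets of its own array (x axis, 12 arrays per gene, colour for treatment and symbol for time); right, mean percentile of each gene of 7 lists, with a bar at the list's median and a dashed line at the array median. Npr3 lies above 79.9 on every array, while Crx, Nrl, Impg2 and Aipl1 lie left of the median on all 12.

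A gene was called at a limma adjusted p under 0.05. At 6 h, 1 of the 9 genes was called without a tumour term in the fit, which was Npr3, lower in LBH589, where 15.8% of the 18652 genes tested were called. At 12 h it was again Npr3 alone, with 18.2% of all genes called, and over both times Npr3 alone, with 30.1%. The median log2 difference of the 9 genes was -0.07 at 6 h and -0.03 at 12 h, against -0.02 and 0.01 over all genes tested. Fits with the tumour as a block, in which levels that differ between tumours leave the spread, added Gabra5 and Rcvrn at 6 h (3 of 9, with 34% of all genes called). They added the same pair over both times (3 of 9, with 45.9%) and no gene at 12 h (1 of 9, with 37.1%). Without the block, 3 of the 9 genes had an unadjusted p under 0.05 at 6 h, 1 at 12 h and 2 over both times, against 5259, 5724 and 7312 of the 18652 genes tested.

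Npr3 had log2 values of 9.32, 9.81 and 9.61 in LBH589 at 6 h in MP567, MP570 and MP525, against 10.82, 11.24 and 11.55 in DMSO. At 12 h it had 9.22, 9.87 and 9.69 in LBH589, against 10.69, 11.53 and 11.39 in DMSO. Every LBH589 array lay below every DMSO array at both times, and the differences within the tumours were -1.94 to -1.43. Means were 9.58 ± 0.25 in LBH589 and 11.2 ± 0.36 in DMSO at 6 h, and 9.60 ± 0.34 in LBH589 and 11.2 ± 0.45 in DMSO at 12 h (SD, n = 3 each). The log2 difference was -1.63 ± 0.26 at 6 h (SE, 95% interval -2.19 to -1.06, limma adjusted p = 0.00165), a level 3.09-fold lower in LBH589. At 12 h it was -1.61 ± 0.26 (-2.17 to -1.05, limma adjusted p = 0.00146), or 3.05-fold lower. Over both times it was -1.62 ± 0.18 (limma adjusted p = 5.69e-05). In the fit without the block, the call at 6 h was lost without the arrays of MP525 (-1.47, limma adjusted p = 0.0617). With the block and all arrays, the interval at 6 h was -1.86 to -1.4 (limma adjusted p = 2.93e-07). Though lower in LBH589, Npr3 stayed above the median of every LBH589 array. In bulk cultures, fewer cells that express a gene and less of its RNA in each cell cannot be told apart.

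Gabra5 was lower in LBH589 in most pairs and was called with the block alone. It had 7.26, 7.03 and 7.66 in LBH589 at 6 h in MP567, MP570 and MP525, against 7.41, 7.61 and 8.89 in DMSO. At 12 h the values were 7.18, 7.45 and 7.57 in LBH589, against 7.42, 7.37 and 8.80 in DMSO. The LBH589 arrays were lower in 5 of 6 pairs of the same tumour and time, the exception being MP570 at 12 h (0.08), and the groups overlapped. The mean difference was -0.65 at 6 h (95% interval -1.56 to 0.25, limma adjusted p = 0.352, and 0.0276 with the block). At 12 h it was -0.46 (-1.37 to 0.44, limma adjusted p = 0.514, and 0.108 with the block). The size rested on MP525: without its DMSO array the difference at 6 h was -0.19, and without all its arrays -0.36. Over both times it was -0.56, and became -0.33 or -0.32 without the 6 h or the 12 h DMSO array of MP525 and -0.22 without that tumour. Outside MP525, all Gabra5 values but that of MP570 in DMSO at 6 h lay within the span of the lymphocyte gene Cd79a. The limit given above bears on them.

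Rcvrn had 7.30, 7.09 and 7.02 in LBH589 at 6 h in MP567, MP570 and MP525, against 7.58, 7.38 and 7.34 in DMSO. All 3 LBH589 arrays lay below all 3 DMSO arrays, with differences of -0.28, -0.28 and -0.31 within the tumours. The difference of -0.29 (95% interval -0.54 to -0.05) missed the threshold without the block (limma adjusted p = 0.107) and passed it with the block (0.0342). At 12 h, with 7.39, 7.35 and 7.45 in LBH589 against 7.58, 7.27 and 7.55 in DMSO, the groups overlapped and the difference was -0.07 (-0.32 to 0.17, limma adjusted p = 0.729).

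Crx was the other gene whose groups did not overlap at 6 h. The share of all genes tested whose arrays separate in this way was not computed. For Rcvrn and Crx the separation is thus a description only and does not by itself mark an effect. It had 6.23, 6.44 and 6.38 in LBH589 in MP567, MP570 and MP525, against 6.76, 6.68 and 6.55 in DMSO. The difference of -0.31 (95% interval -0.59 to -0.04) was not called without the block (limma adjusted p = 0.123) or with it (0.0811). At 12 h the sign was the other way, with 6.43, 6.83 and 6.56 in LBH589 against 6.45, 6.26 and 6.63 in DMSO, and the groups overlapped. There the difference was 0.16 (-0.12 to 0.43, limma adjusted p = 0.459), and MP570 alone was higher in LBH589.

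The other 5 genes were called in neither fit at either time, and for each of them the LBH589 and DMSO arrays overlapped at both times. Otx2 had 7, 7.43 and 7.58 in LBH589 at 6 h in MP567, MP570 and MP525, against 6.46, 7.62 and 7.75 in DMSO, and its difference of 0.06 had a 95% interval of -0.71 to 0.83. At 12 h it had 6.81, 7.52 and 7.43 in LBH589, against 6.82, 7.64 and 7.82 in DMSO, a difference of -0.17 (-0.94 to 0.60). The width of these intervals comes with the low values of MP567, and with the block they were -0.22 to 0.35 and -0.46 to 0.11. Nrl spanned 6.73 to 7.08 over the 12 arrays and had differences of -0.07 (95% interval -0.31 to 0.17) at 6 h and -0.02 (-0.26 to 0.22) at 12 h. Prdm1 spanned 6.97 to 7.57, with differences of 0.10 (-0.18 to 0.39) and 0.16 (-0.12 to 0.45). Impg2 spanned 5.90 to 6.45, with 0.21 (-0.06 to 0.48) and -0.03 (-0.30 to 0.24). Aipl1 spanned 6.64 to 7.07, with 0.02 (-0.26 to 0.29) and -0.03 (-0.31 to 0.24). All 4 genes thus varied little over the arrays, whatever the treatment. For Nrl, Prdm1, Impg2 and Aipl1, these intervals leave out a change of the size seen for Npr3 in either direction. Those of Crx, Nrl, Impg2 and Aipl1 bear the limit given above, that these probe sets lay in the range of the lymphocyte genes. The differences of Rcvrn and Prdm1 bear it too. So do the Otx2 values of MP567, and those of MP570 and MP525 in LBH589.

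**Figure D2:**
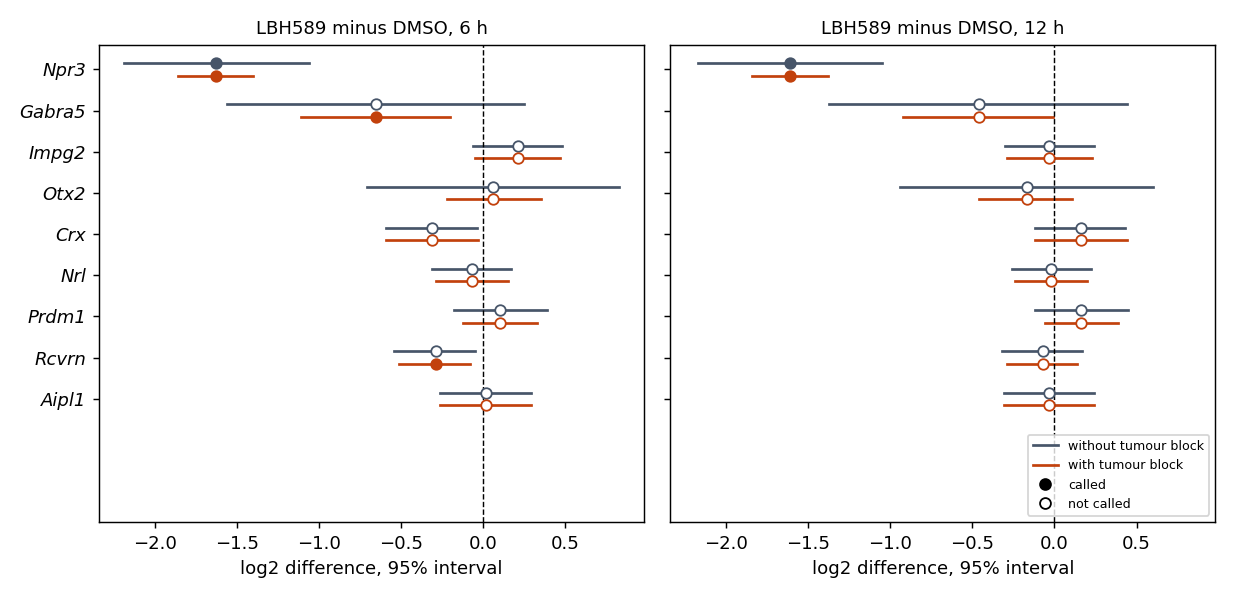
Difference of LBH589 minus DMSO (x axis, log2) for each marker gene at 6 h and 12 h, with 95% intervals, without and with the tumour as a block; filled points passed a limma adjusted p of 0.05. Npr3 lies near -1.6 in both panels, and the other intervals reach or lie close to 0.

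Between 6 h and 12 h, 0 of the 9 genes were called, in DMSO (0.0214% of all genes called), in LBH589 (0%) or in the difference between the effects at 12 h and 6 h (0%). With the tumour block the counts of members were 0 as well, with 0.311%, 1.99% and 0.0107% of all genes called. At an unadjusted p under 0.05, limma gave 0 members in DMSO, 1 in LBH589 and 1 for the difference between effects, in both fits. Over all genes tested these were 412, 1415 and 489 without the block, and 1325, 3435 and 1728 with it. The member in LBH589 was Rcvrn, at 0.26 (95% interval 0.01 to 0.50, limma adjusted p = 0.653), with higher values at 12 h in all 3 tumours. The member for the difference between effects was Crx, at 0.47 (0.08 to 0.86, limma adjusted p = 1, and 0.458 with the block). For Npr3, the effect at 12 h minus that at 6 h was 0.02 (-0.78 to 0.81), and with the block its interval was -0.31 to 0.34.

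Levels differed between the tumours for 3 of the 9 genes, Npr3, Otx2 and Gabra5, in a model with tumour and the 4 groups, where 37.4% of all genes were called. Each name stands for 1 tumour in 4 cultures, so these tests compare these 3 tumours only. MP567 against MP525 called 3 genes, all lower in MP567 (27.3% of all genes called). MP570 against MP525 called 1 (18.8%) and MP567 against MP570 called 2 (25.2%).

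Otx2, which human Group 3 and Group 4 tumours often overexpress, averaged 6.77 ± 0.23 in MP567, 7.55 ± 0.10 in MP570 and 7.65 ± 0.17 in MP525 (SD, n = 4 arrays each). The highest MP567 array, at 7, lay below the lowest arrays of MP570 and MP525, both at 7.43. The MP567 percentiles, 33.5 to 46.7, lay in the range of the lymphocyte genes. The LBH589 arrays of MP570 and MP525 lay within the span of the lymphocyte gene Cd79a. The difference was -0.87 ± 0.11 for MP567 against MP525 (limma adjusted p = 7.95e-05) and -0.78 ± 0.11 for MP567 against MP570 (0.000198). MP570 and MP525 differed by -0.09 (95% interval -0.34 to 0.15, limma adjusted p = 0.659).

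Npr3 was lowest in MP567 within each treatment. Its LBH589 arrays of MP567 (9.32 and 9.22) lay below all those of MP570 and MP525, and so did its DMSO arrays (10.82 and 10.69). The tumour difference was -0.55 ± 0.09 for MP567 against MP525 (limma adjusted p = 0.000579) and -0.60 ± 0.09 for MP567 against MP570 (0.000283). MP570 and MP525 differed by 0.05 (95% interval -0.14 to 0.25).

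Gabra5 had another order, with MP525 above both others. It averaged 7.32 ± 0.12 in MP567, 7.37 ± 0.24 in MP570 and 8.23 ± 0.71 in MP525 (SD, n = 4 arrays each). The difference was -0.92 ± 0.18 for MP567 against MP525 (limma adjusted p = 0.00194) and -0.86 ± 0.18 for MP570 against MP525 (0.00501). MP567 and MP570 differed by -0.05 (95% interval -0.45 to 0.34). The 2 DMSO arrays of MP525, at 8.89 and 8.80, were the highest of all 12, and its LBH589 arrays, at 7.66 and 7.57, were close to the highest arrays of the other tumours. In the DMSO arrays alone the differences from MP525 were -1.43 in MP567 and -1.36 in MP570, and in the LBH589 arrays alone -0.40 and -0.37, neither of which was called (limma adjusted p = 0.0519 and 0.101). The Gabra5 values of MP567, and those of MP570 except DMSO at 6 h, lay within the span of the lymphocyte gene Cd79a.

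The remaining 6 genes were not called between tumours, with limma adjusted p of 0.111 (Prdm1) to 0.853 (Aipl1) over the 3 tumours. For Prdm1, 3 of the 4 MP570 arrays lay below all 4 of MP567, and the difference of MP567 against MP570 was 0.25 (95% interval 0.05 to 0.45, limma adjusted p = 0.0627).

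**Figure D3:**
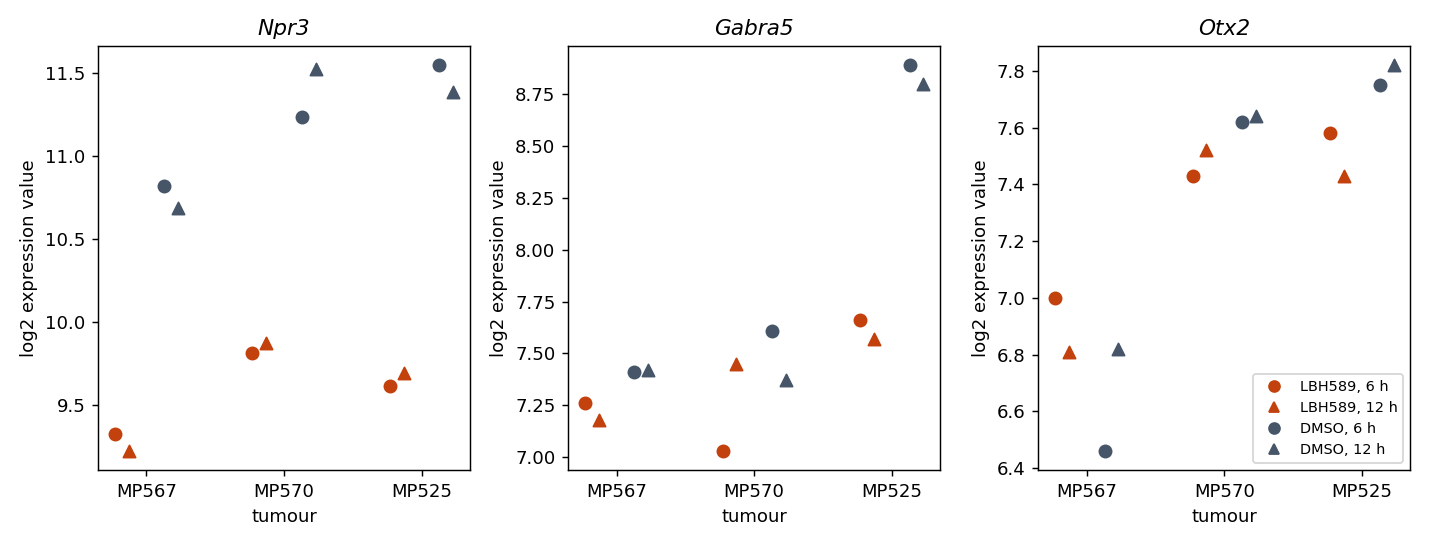
Log2 values of Npr3, Gabra5 and Otx2 on each of the 12 arrays (y axis) by tumour (x axis), with colour for treatment and symbol for time. Npr3 separates by treatment in each tumour, Gabra5 is high in the 2 DMSO arrays of MP525, and all 4 Otx2 values of MP567 lie at or below 7.

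**Figure D4:**
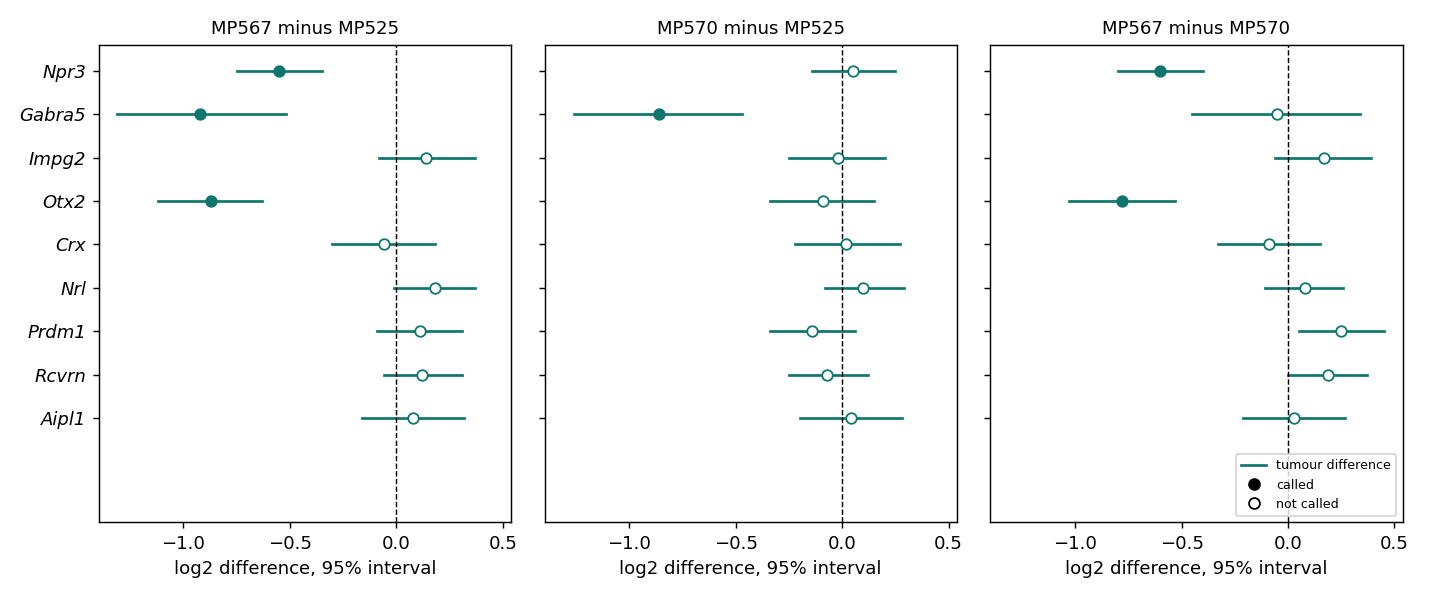
Difference between tumours (x axis, log2) for each marker gene with 95% intervals, from the model with tumour and group; filled points passed a limma adjusted p of 0.05. Otx2 and Npr3 are lower in MP567 than in both others, and Gabra5 is lower in MP567 and MP570 than in MP525.

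The effect of LBH589 itself differed between the tumours for 1 of the 9 genes, Gabra5 (limma F test over the 3 tumours, adjusted p = 0.026, with 1.06% of all genes called). In this model the 6 h and 12 h cultures of a tumour stood as its replicates within each treatment, so the spread came from single tumours. LBH589 minus DMSO was -0.15 and -0.24 at 6 h and 12 h in MP567, -0.58 and 0.08 in MP570, and -1.23 and -1.22 in MP525. The effect in MP567 minus that in MP525 was 1.03 ± 0.20 (95% interval 0.61 to 1.46, limma adjusted p = 0.0234), with 1 of 9 genes and 1.28% of all genes called. The effect in MP570 minus that in MP525 was nearly as large, at 0.98 (0.56 to 1.41), and was not called (limma adjusted p = 0.0772, 0 of 9 genes, 0.209% of all genes). For MP567 minus MP570 it was 0.05 (-0.38 to 0.48, 0 of 9 genes, 0.584% of all genes). At an unadjusted p under 0.05, limma gave 1 member for each of those last 2 contrasts, against 1398 and 2299 of all genes tested. The Gabra5 call over the 3 tumours was lost without any single array of MP567 or MP525 and with a variance prior that does not depend on level. In MP567, and in MP570 except DMSO at 6 h, Gabra5 lay within the span of the lymphocyte gene Cd79a. Brightness alone does not separate a low transcript level from background there, and the part of this limit in the call was not tested.

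For Otx2 the effect in MP567 minus that in MP525 was 0.54 (95% interval 0.13 to 0.95, limma adjusted p = 0.187), MP567 at 6 h being the only pair in which LBH589 was higher. For Npr3 it was 0.33 (0 to 0.67, limma adjusted p = 0.321), and the effect was negative in all 3 tumours at both times.

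Genes that share a pathway with a marker were taken from lists written with general knowledge. The counts of every list below stand against 15.8% of all genes tested called at 6 h and 18.2% at 12 h. With the block these shares were 34% and 37.1%. Of 9 tested genes of the natriuretic peptide system besides Npr3, 0 were called at 6 h, and at 12 h 1 was higher and 1 lower in LBH589 (with the block, 0 and 3 at 6 h, and 1 and 3 at 12 h). Nppc, which encodes the peptide CNP that NPR3 clears, was 0.78 higher at 12 h (limma adjusted p = 0.00905). Prkg1, a cGMP-dependent kinase downstream of the guanylyl cyclase receptors, changed by -1.03 (0.00903). Npr2 and Prkg2 of this list were also lower in LBH589 in each tumour at both times, and neither was called without the block. The median of the list was -0.06 at 6 h and -0.08 at 12 h. Mab21l2 of the Group 3 panel had -0.92 and -0.88 at 6 h and 12 h, called with the block only (limma adjusted p = 4.65e-05 and 5.61e-05, against 0.44 and 0.435 without it). In the panels of the other subgroups, 0 genes were called at 6 h, or 1 of the Group 4 panel and 1 of the SHH panel with the block. At 12 h, Unc5d of the Group 4 panel (1.13, limma adjusted p = 0.0171) and Wif1 of the WNT panel (0.42, 0.00808) were higher, and 0 of the 5 SHH genes were called, though 3 were higher with the block. At that time the block gave 2 higher genes in the Group 4 panel and 2 in the WNT panel.

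Of 16 tested GABA-A receptor subunits and anchors besides Gabra5, 2 were higher and 1 lower at 6 h, and 4 were higher and 3 lower at 12 h (with the block, 4 and 5, and 6 and 4). At 12 h, the subunits Gabrg1 (1.48, limma adjusted p = 0.0409) and Gabrb1 (0.99, 0.00535) were higher in LBH589. Rdx, which encodes the alpha 5 subunit's anchor radixin, was lower at 6 h (-0.70, 0.00279) and at 12 h (-0.94, 0.000446), and the subunit Gabra4 was lower at 12 h (-0.56, 0.0465).

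Of 10 tested neuronal calcium sensors related to recoverin, 1 was higher and 1 lower at 6 h, and 2 were higher and 1 lower at 12 h (with the block, 2 and 1, and 3 and 1). Ncs1, a sensor of the same family, changed by -1.50 and -1.63 (limma adjusted p = 5.09e-05 and 2.38e-05), and Hpcal1 by 0.89 and 0.88 (0.0435 and 0.0412). Of 13 tested PRDM genes besides Prdm1, 1 was higher and 3 were lower at each time (with the block, 1 and 3 at 6 h, and 2 and 6 at 12 h). Prdm9, a meiotic histone methyltransferase, was at 0.62 and 0.85 (0.00732 and 0.00109). Prdm10 had -1.06 and -0.82 (0.000754 and 0.00262) and Prdm15 -0.71 and -0.64 (0.0293 and 0.0414).

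Of 29 tested genes of phototransduction and of rod or cone structure, 0 were called at 6 h and 1 was higher at 12 h, Rgs9, which speeds the shut-off of transducin (1.01, limma adjusted p = 0.0035). The median of that list was -0.06 at 6 h and 0.02 at 12 h, and with the block 2 were higher and 0 lower at 6 h, and 3 higher and 1 lower at 12 h. Of 17 retinal transcription factors, 1 was higher and 1 lower at each time (with the block, 4 and 2 at 6 h, and 5 and 2 at 12 h). Without the block they were Onecut2 (0.58 and 0.60, limma adjusted p = 0.0154 and 0.0109), a factor of early retinal cell types, and Neurod1 (-0.71 and -0.72, 0.0343 and 0.0273), a factor of photoreceptors and of cerebellar granule cells. Of 8 relatives of OTX2, CRX, NRL and AIPL1, 0 were called at 6 h, and at 12 h Mafa was higher (0.57, 0.0039) and Mafg lower (-0.60, 0.00775), while the block gave 0 higher and 1 lower at 6 h, and 2 higher and 1 lower at 12 h.

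**Figure D5:**
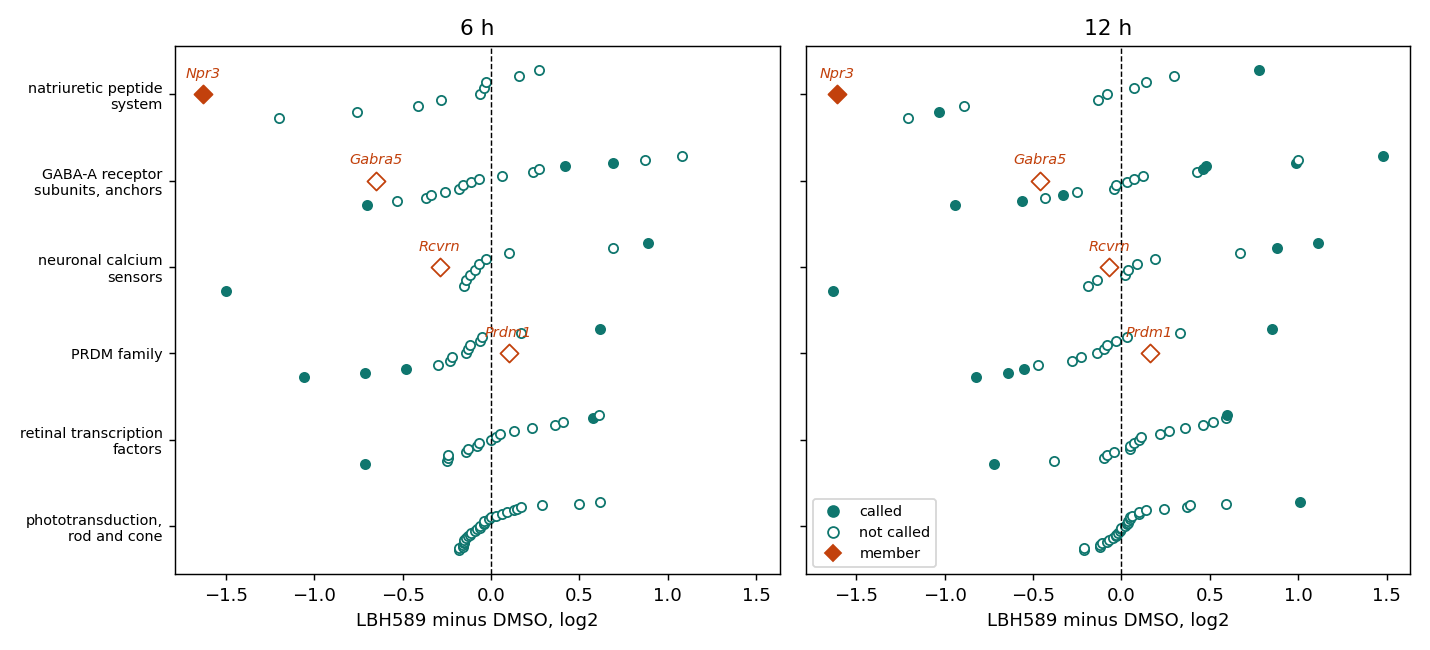
LBH589 minus DMSO (x axis, log2) at 6 h and 12 h for tested genes of 6 lists, 1 point per gene, spread vertically only to separate points, with marker genes as diamonds; filled symbols passed a limma adjusted p of 0.05 without the block. Npr3 lies left of all genes of its list at both times.

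Some markers of other cells were also called, where 15.8% of all genes tested were called at 6 h and 18.2% at 12 h. With the block these shares were 34% and 37.1%. Of 7 tested genes of differentiated neurons, 1 was higher and 1 lower at 6 h, and 1 higher and 2 lower at 12 h, and with the block 2 were higher and 5 lower at each time. The list's median was -0.36 at 6 h and -0.30 at 12 h. Without the block, Syt1 was higher (0.54 and 0.78, limma adjusted p = 0.0472 and 0.00709), and Neurod1, given above, was lower at both times and Rbfox3 at 12 h (-0.72, 0.0317). Of 7 astrocyte genes 0 were called without the block, and with it 0 were higher and 2 lower at 6 h, and 1 higher and 3 lower at 12 h, Gja1 among the lower ones (-0.87 and -0.65, limma adjusted p = 0.000353 and 0.00272). Of 10 microglia and macrophage genes, 0 were called at 6 h in either fit, and at 12 h Cd68 alone was higher (0.71, limma adjusted p = 0.0129). With the block 2 were higher and 2 lower at 12 h, and the median of that list was -0.11 at 6 h and -0.05 at 12 h. Of 7 endothelial genes, 1 was higher and 0 lower at each time, which was Kdr (0.81 and 0.71, limma adjusted p = 0.0105 and 0.0173), and 3 were higher at 12 h with the block. Of the lymphocyte and oligodendrocyte genes 0 were called in either fit at 6 h or 12 h. Prom1 was lower at 12 h (-0.98, limma adjusted p = 0.00295), and had -0.56 at 6 h, called with the block only (0.0127). Mean log2 values of the neuronal list lay between 9.32 and 9.75 in LBH589 and 9.38 and 10 in DMSO at 6 h, and between 9.29 and 9.85 in LBH589 and 9.52 and 10.02 in DMSO at 12 h. Their part in the differences of Npr3, Gabra5 and Rcvrn was not tested.

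The genes whose profile over the 12 arrays was most like that of Npr3, by the root-mean-square difference of log2 values after each gene was centred on its own mean, were Crtap (0.20), Slc35f2 (0.21) and Hs6st2 (0.25). Crtap, a subunit of the collagen prolyl 3-hydroxylase complex, had LBH589 differences of -1.49 at 6 h and -1.55 at 12 h. Slc35f2, a solute carrier, had -1.75 and -1.56, and Hs6st2, a heparan sulfate 6-O-sulfotransferase, -1.19 and -1.27. Their profiles share the arrays with Npr3, and no test was made of the likeness.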

How the data were processed

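Total RNA of 12 cultures was hybridised to 1 Affymetrix Mouse Gene 2.0 ST array per culture. The authors deposited log2 values for each probe set. That they are base 2 follows from the values, which span 1.5 to 14.5. The background correction, summarisation and normalization are not given in the sources used here. Per the submitters' processing notes the tool was Agilent Feature Extraction 10.7.3.1, which reads arrays of another maker. No further normalization was applied.

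Of 41345 probe sets, 23521 named 1 gene in the platform annotation, 1814 named several and 16010 were not listed. Symbols came from RefSeq through Entrez numbers for 23328 of them. The brightest probe set stood for a gene. Genes above the array's 25th percentile on at least 3 arrays were tested, 18652 in all, with all 9 markers among them. Listed genes without a probe set of their own were not analysed here.

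Groups came from the labels. Tests used limma 3.58.1 in R 4.3.3 (lmFit, eBayes with a mean-variance trend), two-sided, Benjamini-Hochberg adjusted over all genes tested. The main fit had the 4 group means (8 residual degrees of freedom). Since the 4 arrays of a tumour come from the same tumour, a fit that blocks on tumour (6) is given beside each count or named marker whose call it changes. Deviations from group means correlated at 0.45 to 0.805 in the 18 pairs of the same tumour. Tumour differences used tumour plus group, and the effect by tumour used tumour by treatment plus time. Scripts were tested on simulated data. The named genes are the 9 markers, up to 4 of the largest called changes of each list, a few defining genes, and for a called marker the 3 most alike profiles. The markers and lists were chosen with earlier results of these data known. Whether the 4 cultures of a tumour were independent beyond the treatment is not stated.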

Additional observations from a re-analysis of the deposited data

Results flagged for a closer look

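The effect of LBH589 on Gabra5 differed between the tumours by limma's F test over the 3 tumours (adjusted p = 0.026), a test of the difference itself. The 6 h and 12 h cultures of a tumour stood as its replicates within each treatment. LBH589 minus DMSO was -0.15 and -0.24 at 6 h and 12 h in MP567, -0.58 and 0.08 in MP570, and -1.23 and -1.22 in MP525, on the log2 scale. The DMSO level was also highest in MP525 (8.89 and 8.80), and the part of that level in the difference was not tested. In MP567, and in MP570 except DMSO at 6 h (7.61), Gabra5 lay within the span of the lymphocyte gene Cd79a (6.78 to 7.59). Brightness alone does not separate a low transcript level from background there, and the part of this limit in the difference was not tested. The call was lost without any single array of MP567 or MP525.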

How the results depend on the processing

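Counts below are of the 9 markers unless genes are named. With the tumour as a fixed replicate block, 3 were called at 6 h and 3 over both times, against 1 and 1 without it. With a random replicate block these were 2 and 3. The block moved no other call of a marker under these comparisons. Leaving out 1 array or 1 tumour gave 0 to 1 at 6 h, where the 0 came without MP525, and 1 to 2 over both times, where the 2 came without the DMSO 12 h array of MP570 and added Rcvrn. At 12 h the count was 1 under every alternative run. In the LBH589 arrays alone, a setting chosen after seeing the data, MP570 against MP525 called 0, against 1 over all arrays. The effect of LBH589 differing between tumours was called for 0 with no trend in the variance prior, and for 0 to 1 without single arrays, the 0 coming without each array of MP567 and of MP525. Over all genes tested, the fixed block took the calls to 6333 from 2948 at 6 h, 6928 from 3395 at 12 h, 8566 from 5607 over both times, 58 from 4 for time in DMSO, 371 from 0 for time in LBH589 and 2 from 0 for the difference between effects. Without MP570 they were 879, 1265 and 3308 at 6 h, 12 h and over both times, and without MP525 they were 1018, 1682 and 3678. For the effect differing between tumours, 198 genes became 56 to 309 without single arrays and 100 with no trend. Directions of called markers held under all alternatives run. With 3 arrays per group, small differences may have been missed, and no detection limit was computed. The probe sets of Crx, Nrl, Impg2 and Aipl1 lay in the range of the lymphocyte genes. All values of Rcvrn and Prdm1 lay within the span of the lymphocyte gene Cd79a, and Otx2 in MP567 lay in the lymphocyte range. The Otx2 values of MP570 and MP525 in LBH589 also lay within the Cd79a span. So did the Gabra5 values of MP567, and those of MP570 except DMSO at 6 h.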
